A study of Mus musculus with 4 samples.

Results

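The genes described here encode subunits of respiratory complexes II, III and IV and of ATP synthase (complex V), together with cytochrome c. They were taken by name: 44 gene symbols, 38 encoded in the nucleus and 6 in mitochondrial DNA, were matched to Ensembl identifiers through GENCODE M21. All 44 were found among the 23390 gene models of the count table and all 44 passed the filter on low counts. A further model that GENCODE M21 also names Atp5o had no count in any library and was not used.

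The cells were wild-type C57BL/6J mouse bone marrow macrophages, grown for 3 days with L929-conditioned medium as the source of M-CSF (the equivalent of 20 ng/ml) and then driven towards osteoclasts with 40 ng/ml RANKL. One group received the solvent DMSO (2 libraries) and the other 10 µM BMS-582949, an inhibitor of the kinase p38α (2 libraries), and RNA was taken at day 4. The design text gives the compound for 3 days and the treatment protocol for 4 days, and that protocol names the compound for the DMSO samples too, so groups follow the treatment label. Titles of the treated samples spell the compound BMS-584929. Nothing in the labels ties a library to its own mouse or culture, so p-values measure the spread between these libraries, which may be technical.

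The respiratory chain moves electrons through protein complexes in the inner mitochondrial membrane. Complex II takes them from succinate, complex III passes them to the carrier cytochrome c, and complex IV hands them to oxygen. Complexes III and IV pump protons, and ATP synthase uses the returning protons to make ATP. Complexes III, IV and ATP synthase join subunits of both genomes, while every subunit of complex II is nuclear-encoded. Osteoclasts are rich in mitochondria, and their formation is known to be accompanied by mitochondrial biogenesis.

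All 44 genes were lower with BMS-582949 and all 44 passed the test (edgeR's quasi-likelihood test over 13214 genes, called where the p adjusted after Benjamini and Hochberg was under 0.05; largest adjusted p of a member 6.9e-05). Over all tested genes, 29.7% were called lower and 60.2% in either direction. The median log2 fold change (BMS-582949 minus DMSO) was -1.17 over the 44 genes and 0.03 over all tested genes. Of the 44, 35 fell at least 2-fold, against 11.3% of all tested genes. Both BMS-582949 libraries lay below both DMSO libraries for each of the 44, which held for 38.7% of tested genes. The median was -1.22 over the 4 genes of complex II, -1.42 over the 10 of complex III, -1.20 over the 14 of complex IV and -1.01 over the 15 of ATP synthase, and the single cytochrome c gene changed by -1.001. Differences between complexes were not tested, and the order of these medians changed with the processing: with each library's trend on exon length and GC content removed, complex II (-1.285) lay below complex III (-1.26) and cytochrome c (-1.14) below complex IV (-0.953).

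The scale matters for the size of these falls. Values are CPM, counts relative to the library total after scaling by TMM, a method that assumes little change in most genes. Scaling by library size only moved the median of all genes from 0.03 to 0.41 and the median of the 38 nuclear genes from -1.21 to -0.83. All 44 genes were still called lower on that scale, where 17.0% of all tested genes were.

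The 4 libraries held 35331889 to 39255925 counts. The osteoclast label was checked on 10 marker genes, whose summed level was 99133 and 103354 CPM with DMSO and 12156 and 12315 CPM with BMS-582949, and all 10 were called lower. Of 8 macrophage markers 5 were called higher and 2 lower (summed 5776 to 6030 CPM with DMSO and 3064 to 3260 CPM with BMS-582949). Of 7 tested stromal markers 4 were called lower and 1 higher (summed 664 to 724 CPM against 463 to 469 CPM). Neutrophil, B cell, T or NK cell, erythroid and muscle markers summed to at most 18.4 CPM in any library, with Ly6g, Cd3e, Myh4 and Tnnt3 at 0. The part of these markers in the falls of the subunit genes was not tested, and in whole cultures fewer osteoclasts and less RNA per cell cannot be told apart. Mapk14, which encodes the target of the compound, was at 100 and 111 CPM with DMSO and 160 and 156 CPM with BMS-582949.

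**Figure D1:**
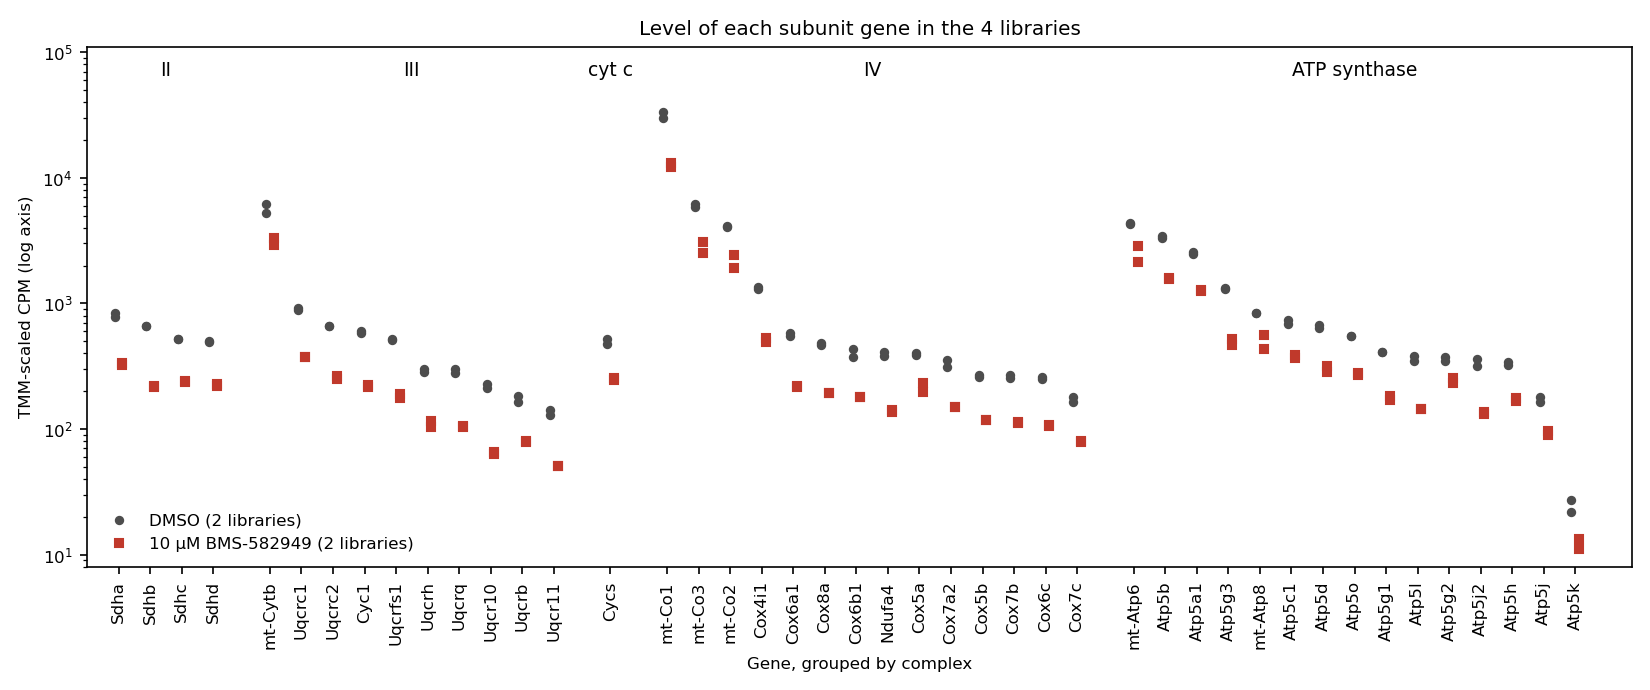
TMM-scaled CPM (log axis) of the 44 subunit genes in each of the 4 libraries, grouped by complex, with DMSO as grey circles and 10 µM BMS-582949 as red squares. In every gene both red squares lie below both grey circles, from mt-Co1 (29676 and 33216 CPM with DMSO) down to Atp5k (21.8 and 27.2 CPM with DMSO).

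The promoters of the nuclear genes were read as a description of sequence, and no motif was tested against the fold changes. The windows come from RefSeq (GRCm38.p6) and run from 250 bases before to 50 bases after a gene's start, 300 bases in all. Of the 38 nuclear genes 30 had a window, 33 windows in total. The 4 shown are those of the gene with the largest fall in each complex among genes with a window: Sdhb at chr4:140961021-140961320 (plus strand), Uqcr10 at chr11:4704295-4704594, Ndufa4 at chr6:11907401-11907700 and Atp5g3 at chr2:73911277-73911576 (the last 3 on the minus strand). Each is written 5′ to 3′ on the gene's strand, and capitals mark matches to the NRF1 core, ETS, YY1 or ERR letters given after them.
Sdhb: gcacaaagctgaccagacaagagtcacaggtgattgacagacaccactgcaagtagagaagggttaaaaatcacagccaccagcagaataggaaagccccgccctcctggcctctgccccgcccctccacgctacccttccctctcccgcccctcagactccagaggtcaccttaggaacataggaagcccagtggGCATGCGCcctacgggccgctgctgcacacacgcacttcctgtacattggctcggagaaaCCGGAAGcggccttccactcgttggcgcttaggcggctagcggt
Uqcr10: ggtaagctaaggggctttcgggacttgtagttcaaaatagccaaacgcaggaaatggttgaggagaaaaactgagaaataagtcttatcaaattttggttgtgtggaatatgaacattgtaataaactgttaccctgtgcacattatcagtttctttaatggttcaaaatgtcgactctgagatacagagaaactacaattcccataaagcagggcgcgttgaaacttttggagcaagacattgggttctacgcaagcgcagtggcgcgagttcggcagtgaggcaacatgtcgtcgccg
Ndufa4: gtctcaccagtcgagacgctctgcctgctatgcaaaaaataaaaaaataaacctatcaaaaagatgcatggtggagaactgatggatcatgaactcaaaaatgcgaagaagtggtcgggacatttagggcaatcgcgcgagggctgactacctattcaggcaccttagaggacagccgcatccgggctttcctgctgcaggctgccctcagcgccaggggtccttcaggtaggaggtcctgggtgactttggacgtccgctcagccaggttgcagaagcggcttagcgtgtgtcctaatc
Atp5g3: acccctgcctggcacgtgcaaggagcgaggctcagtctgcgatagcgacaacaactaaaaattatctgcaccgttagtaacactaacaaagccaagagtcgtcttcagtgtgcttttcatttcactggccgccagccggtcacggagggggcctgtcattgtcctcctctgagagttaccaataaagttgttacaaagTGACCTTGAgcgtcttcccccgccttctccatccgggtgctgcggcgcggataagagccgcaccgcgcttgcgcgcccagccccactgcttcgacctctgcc

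Motifs were searched as exact letters on both strands. The core of the site of NRF1, a transcription factor of respiratory genes, was searched as GCATGCGC and stood in 8 of the 33 windows (24.2%), against 5.12% of 12671 windows of tested genes and 2.71% of all 32851 windows. The longer NRF1 palindrome that contains this core stood in 4 of the 33 (12.1%) and in 2.01% of windows of tested genes. The ETS letters CCGGAAG, bound by factors such as GABP, stood in 11 of the 33 (33.3%), against 17.2% for tested genes and 8.86% for all windows. The ERR letters TCAAGGTCA, the site of the estrogen-related receptors, stood in the windows of Atp5g3 and Sdhd (6.06%), against 0.26% for tested genes and 0.42% for all windows. In Atp5g3 the match begins 52 bases before the start, on the other strand.

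Sdhb carries the NRF1 core from 54 bases before its start and the ETS letters from base 7 after it. Uqcr10 and Ndufa4, which changed by -1.76 and -1.50, hold none of the letters searched in these windows. The YY1 letters AAGATGGCG were in 2 of the 33 windows (6.06%, against 2.94% for tested genes), and the E-box CACGTG in 3 (9.09% against 9.79%). The Sp/KLF letters GGGCGG stood in 9 (27.3%), fewer than in windows of tested genes (61.8%), and the TATA letters TATAAA in 1 (3.03% against 7.12%). These shares describe sequence only, and several motifs can lie in 1 window.

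Complex II, succinate dehydrogenase, links the citric acid cycle to the respiratory chain, and all 4 of its genes fell. Sdhb encodes the iron-sulfur subunit and was at 658 and 657 CPM with DMSO and at 217 and 219 CPM with BMS-582949. The libraries of a group were nearly equal, and the log2 fold change was -1.59 ± 0.06 (SE, adjusted p = 5.7e-10), the second largest fall of the 44. Sdha, the flavoprotein that oxidises succinate, was at 786 and 838 CPM with DMSO and at 335 and 322 CPM with BMS-582949 (-1.31 ± 0.07, adjusted p = 4.8e-09). The membrane anchors Sdhc and Sdhd, which hold the catalytic part in the membrane and pass electrons to ubiquinone, fell less than Sdhb. Sdhc was at 517 and 516 CPM with DMSO against 238 and 240 CPM, a change of -1.11 ± 0.06. Sdhd was at 502 and 489 CPM against 220 and 228 CPM, a change of -1.14 ± 0.06. The groups did not overlap for any of the 4, and the catalytic pair showed the larger falls, a difference that was not tested.

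Complex III, the cytochrome bc1 complex, held the largest fall. Uqcr10, a small subunit, was at 228 and 210 CPM with DMSO and at 65.7 and 63.6 CPM with BMS-582949, 29.5% of the DMSO level (-1.76 ± 0.07, adjusted p = 5.4e-10). Its rank as the largest fall depended on the processing. With each library's trend on exon length and GC content removed, Uqcr10 changed by -1.34, Uqcrc2 by -1.44 and Sdhb by -1.50. The electron carriers of the complex also fell. Uqcrfs1, the Rieske iron-sulfur protein, was at 523 and 515 CPM against 178 and 189 CPM (-1.50 ± 0.06, adjusted p = 1.1e-09). Cyc1, the haem protein that passes electrons to cytochrome c, was at 603 and 586 CPM against 215 and 226 CPM (-1.43 ± 0.06, adjusted p = 1.6e-09). In both genes the treated libraries lay far below both DMSO libraries.

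The core protein gene Uqcrc1 was at 878 and 912 CPM with DMSO and at 374 and 376 CPM with BMS-582949 (-1.26 ± 0.06). The other 5 nuclear genes of the complex, Uqcrc2, Uqcrb, Uqcrq, Uqcrh and Uqcr11, changed by -1.48 to -1.11 (largest adjusted p 3.5e-08). Cytochrome b, the subunit made inside the mitochondrion, had the value nearest 0: mt-Cytb was at 6180 and 5239 CPM with DMSO and at 2927 and 3310 CPM with BMS-582949 (-0.87 ± 0.10, adjusted p = 6.5e-06). Its libraries differed more within a group than those of the nuclear genes of the complex, and the groups were still apart. Exons of Uqcrc2 overlap those of Pdzd9 over 19.7% of their length. For Uqcrb, 25.4% of 50-base windows of its transcripts also occur in transcripts of other genes, all 4 of them pseudogenes, so its counts are less certain.

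Cytochrome c is the soluble carrier between complexes III and IV. Cycs, its gene in somatic cells, was at 525 and 472 CPM with DMSO and at 245 and 253 CPM with BMS-582949, a change of -1.001 ± 0.07 (adjusted p = 7.7e-08). Of its 50-base windows 25.9% also occur in 43 other genes, 10 of them pseudogenes.

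Complex IV, cytochrome c oxidase, has a catalytic core of 3 mitochondrially encoded subunits surrounded by small nuclear-encoded ones. mt-Co1, which carries the site where oxygen is reduced, was at 33216 and 29676 CPM with DMSO and at 12131 and 13162 CPM with BMS-582949 (-1.31 ± 0.10, adjusted p = 2.3e-07). mt-Co2, which accepts electrons from cytochrome c, was at 4131 and 4049 CPM against 1899 and 2410 CPM (-0.92 ± 0.10, adjusted p = 5.8e-06). mt-Co3 was at 5902 and 6197 CPM against 2516 and 3105 CPM (-1.11 ± 0.10, adjusted p = 9.5e-07). All 3 fell, mt-Co1 about as far as the nuclear genes around it.

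Among the 11 nuclear genes of complex IV the fall ran from -1.50 to -0.88, with a median of -1.22. Ndufa4, first described with complex I and now assigned to complex IV, was at 409 and 379 CPM with DMSO and at 136 and 143 CPM with BMS-582949 (-1.50 ± 0.07, adjusted p = 1.6e-09). Cox5a stood at the other end, with 400 and 387 CPM against 196 and 231 CPM (-0.88 ± 0.08, adjusted p = 8.4e-07). Cox4i1, the isoform 1 of subunit 4, which takes part in the regulation of the enzyme by ATP, was at 1361 and 1293 CPM against 494 and 530 CPM (-1.37 ± 0.07, adjusted p = 5.1e-09). The groups were apart in each of these genes, also in Cox5a. The remaining 8 (Cox5b, Cox6a1, Cox6b1, Cox6c, Cox7a2, Cox7b, Cox7c and Cox8a) changed by -1.38 to -1.11, with a largest adjusted p of 2.6e-08. Exons of Cox5a overlap another model over 12.8% of their length, and 22.1% of the windows of Cox7c and 11.9% of those of Cox5b occur in other genes.

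**Figure D2:**
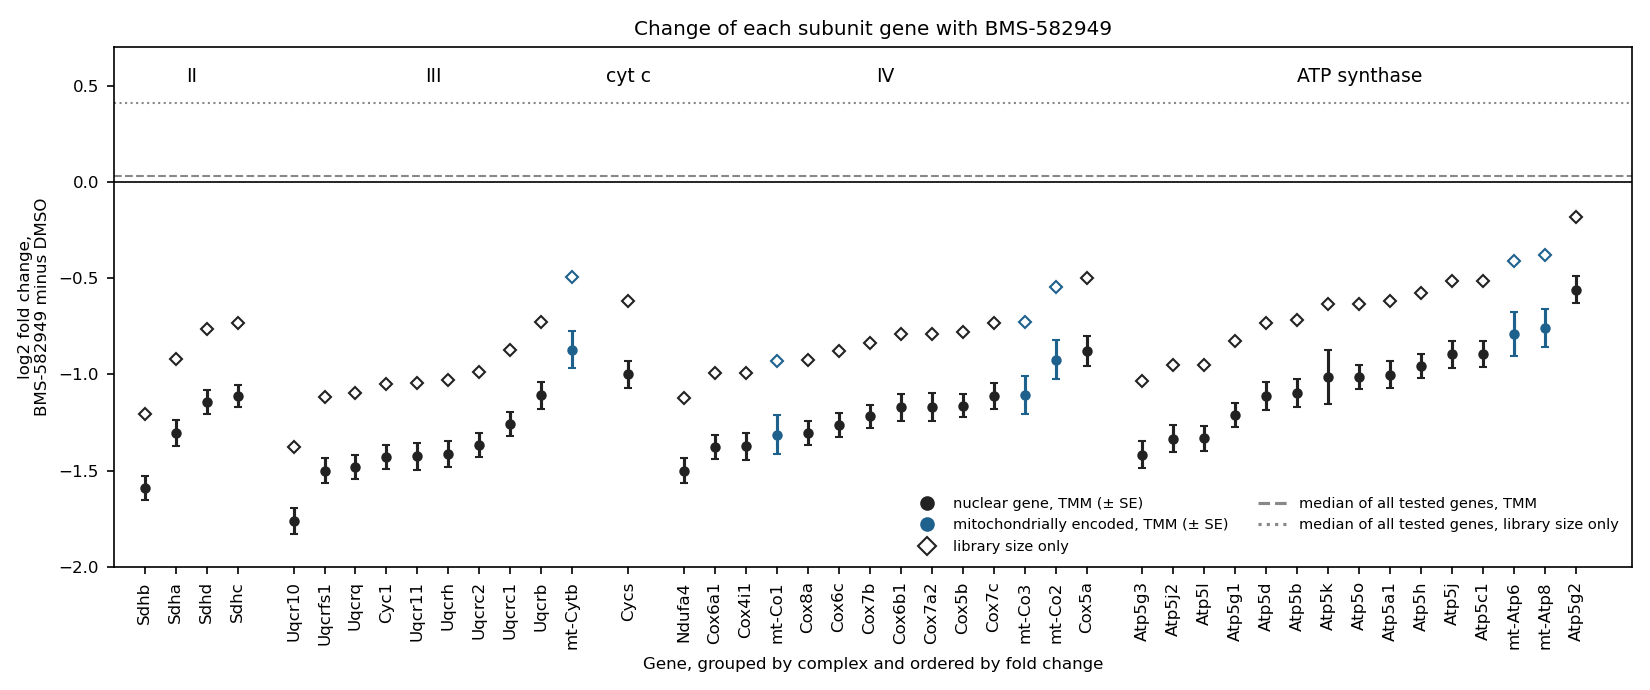
Log2 fold change (BMS-582949 minus DMSO) of each subunit gene, grouped by complex, as filled circles with the SE for TMM scaling (black nuclear, blue mitochondrially encoded) and as open diamonds for library size only. Dashed and dotted lines are the medians of all tested genes on the same scales (0.03 and 0.41), and every gene lies below both lines, with Uqcr10 at -1.76 and Atp5g2 at -0.56 as the ends of the range.

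ATP synthase is a rotary enzyme with a catalytic head (F1), a ring of c subunits in the membrane and a stalk that holds the head still. All 4 head genes fell. Atp5b, the catalytic beta subunit, was at 3303 and 3433 CPM with DMSO and at 1564 and 1582 CPM with BMS-582949 (-1.10 ± 0.07, adjusted p = 4.9e-08). Atp5a1, the alpha subunit, was at 2489 and 2582 CPM against 1257 and 1274 CPM (-1.0 ± 0.07, adjusted p = 8.6e-08). With Atp5c1 (-0.90), the gamma subunit that turns inside the head, and Atp5d (-1.11), the delta subunit, the 4 head genes had a median of -1.05. The 3 stalk genes Atp5h, Atp5j and Atp5o changed by -1.01 to -0.90. The membrane subunits Atp5j2 (-1.34), Atp5l (-1.33) and Atp5k (-1.02), which take part in dimers of the enzyme, had a median of -1.33. Atp5k rests on the fewest counts of the 44, 845 and 688 with DMSO and 598 and 465 with BMS-582949.

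Counts of some of these genes can include reads of neighbours or copies. Exons of Atp5o overlap other models, the unused one of the same name among them, over 47.9% of their length. Those of Atp5j overlap Gabpa, which encodes an ETS factor, over 12.7%, and Gabpa went the other way (0.74, described below with the regulators). Of the windows of Atp5h 19.9% occur in other genes.

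The c ring held both the largest and the smallest fall in ATP synthase. Atp5g1, Atp5g2 and Atp5g3 encode the same mature c subunit with different import sequences, and so offer 3 sources of 1 protein. Atp5g3 was at 1326 and 1298 CPM with DMSO and at 465 and 518 CPM with BMS-582949 (-1.42 ± 0.07, adjusted p = 5.7e-09). Atp5g1 was at 410 and 409 CPM against 172 and 182 CPM (-1.21 ± 0.06, adjusted p = 5.9e-09). Atp5g2 (chromosome 15, 102662864 to 102672352) was at 373 and 346 CPM against 231 and 256 CPM (-0.56 ± 0.07, adjusted p = 1.9e-05), the smallest fall of the 44. All 3 fell, and the groups were apart in each, but the treated level of Atp5g2 remained at 67.7% of that with DMSO. Across the alternative settings the log2 fold change of Atp5g2 ran from -0.66 to -0.18, with a largest adjusted p of 0.031.

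The share of each gene in the counts of the 3 was compared next. Atp5g2 held 17.7% and 16.8% (95% exact Clopper-Pearson interval of the latter 16.6% to 17.1%) of the counts of the 3 genes with DMSO and 26.6% and 26.8% with BMS-582949. Atp5g3 held 62.9% and 63.2% with DMSO and 53.6% and 54.2% with BMS-582949. Both differences are larger than the spread within groups, but 2 libraries against 2 cannot go below p = 0.333 in a two-sided exact permutation test, the value found for both. Atp5g1 stayed at 19.4% and 19.9% against 19.8% and 19.1% (exact permutation p = 0.667). Divided by exon length, the mean share of Atp5g2 was 23.8% with DMSO and 35.7% with BMS-582949. Of the 50-base windows of Atp5g2 38.3% occur in 3 other genes, 2 of them pseudogenes, against 10.2% for Atp5g1 and 0 for Atp5g3, and reads of such copies were not separated here.

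**Figure D3:**
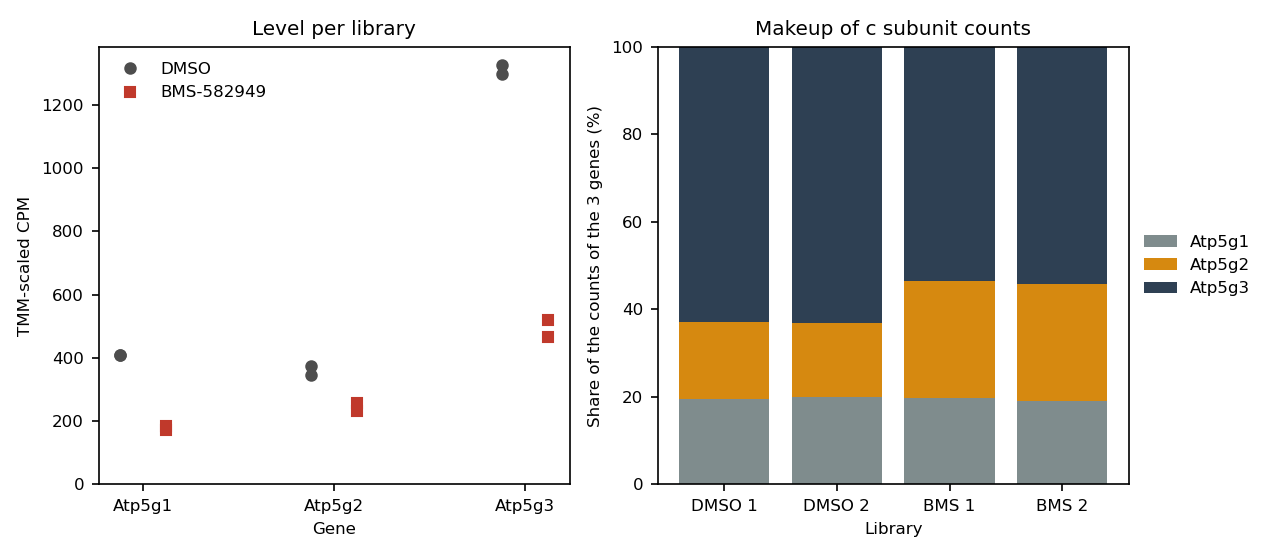
Left, TMM-scaled CPM of the 3 c subunit genes in each library (linear axis from 0). Right, the share of each gene in the summed counts of the 3 genes, per library, where Atp5g2 takes 16.8% and 17.7% with DMSO and 26.6% and 26.8% with BMS-582949.

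The 2 mitochondrially encoded subunits of ATP synthase fell too, with values nearer 0 than those of all nuclear ones but Atp5g2, a difference that was not tested. mt-Atp6, part of the proton channel, was at 4374 and 4302 CPM with DMSO and at 2141 and 2882 CPM with BMS-582949 (-0.79 ± 0.11, adjusted p = 6.9e-05). mt-Atp8 was at 846 and 835 CPM against 433 and 560 CPM (-0.76 ± 0.10, adjusted p = 2.6e-05). In both genes BMS-582949 replicate 2 lay closer to DMSO than replicate 1, and the groups did not overlap. The fall of mt-Atp8 was not called once each library's trend on exon length and GC content was removed (-0.10, adjusted p = 0.20). Their reading frames overlap in mitochondrial DNA, over 21.1% of the length of mt-Atp8.

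By genome of origin, the 38 nuclear genes had a median of -1.21 and the 6 mitochondrially encoded genes one of -0.90. Treated levels were 29.5% to 67.7% of the DMSO level for nuclear genes (median 43.1%) and 40.2% to 59.1% for mitochondrial genes (median 53.6%). All 6 mitochondrial genes were higher in BMS-582949 replicate 2 than in replicate 1. On a scale per kilobase of exon the mitochondrial genes stood far above the nuclear ones, at 4119 to 20353 CPM per kb with DMSO against 39.8 to 856 CPM per kb. Between 51.1% and 100% of the windows of mt-Co1, mt-Co2, mt-Co3 and mt-Atp6 also occur in nuclear pseudogene transcripts, which are copies of mitochondrial DNA.

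Shares of each library use no scaling factors, so they compare with the values by library size only. The 38 nuclear genes took 2.02% (95% exact Clopper-Pearson interval 2.011% to 2.020%) and 1.97% of all counts with DMSO and 1.13% and 1.14% with BMS-582949. The 6 mitochondrial genes took 4.81% and 4.39% with DMSO and 2.54% and 2.87% with BMS-582949, of which mt-Co1 alone made 2.92% and 2.59%, then 1.40% and 1.49%. Intervals cover counting error only. Groups were apart in both shares, and the mitochondrial share varied more within a group.

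The balance between the genomes was read from the ratio of summed CPM of mitochondrial to nuclear subunits within a complex. In complex III the ratio was 1.62 and 1.40 with DMSO and 2.05 and 2.27 with BMS-582949, with no overlap between groups. In complex IV it was 8.65 and 8.51 against 8.37 and 9.06, where the groups overlap. In ATP synthase it was 0.470 and 0.460 against 0.496 and 0.645, apart but with BMS-582949 replicate 1 near DMSO. In complex III, whose only mitochondrial member is mt-Cytb, the groups lay apart, and in complex IV they did not. These ratios were not tested and are not per length.

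The falls of the nuclear genes lay close together: 32 of 38 were within 0.3 of their median on the log2 scale. Their size had little rank correlation with exon length, GC content or level in DMSO. Removing each library's trend on exon length and GC content still moved the median of the 38 from -1.21 to -1.11. Across the 38, Spearman's rho of the log2 fold change was 0.16 with exon length, -0.15 with GC content and -0.05 with the level in DMSO. These values describe genes measured in the same 4 libraries, and genes are not independent replicates.

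Other genes of the same system were read from lists of related genes. Of 11 tested further subunits and isoforms, 7 were called lower, 1 higher and 3 were not called (median -1.01). Among all tested genes 29.7% were called lower and 30.5% higher. Usmg5, a small subunit of ATP synthase, changed by -1.51 and Atp5mpl, another, by -1.20, while Atp5e, the epsilon subunit of the head, changed by -1.11. Cox7a2l, which helps to join complexes III and IV into supercomplexes, was at 524 and 534 CPM with DMSO and at 259 and 265 CPM with BMS-582949 (-1.01 ± 0.06). Cox4i2, the alternative isoform of subunit 4, was at only 1.61 and 1.01 CPM with DMSO and 0.133 and 0.0709 CPM with BMS-582949 (-3.63 ± 0.64, adjusted p = 3.5e-04). Atpif1, the inhibitor that stops ATP synthase from running in reverse, was not lower: it stood at 157 and 144 CPM with DMSO and at 170 and 171 CPM with BMS-582949 (0.18 ± 0.06, adjusted p = 0.029). This small rise lost its call when DMSO replicate 2 (0.12, adjusted p = 0.19), BMS-582949 replicate 1 (0.18, adjusted p = 0.059) or BMS-582949 replicate 2 (0.15, adjusted p = 0.13) was left out, and with DESeq2 (0.155, adjusted p = 0.066).

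Assembly factors, which build the complexes and insert their copper and haem but are not part of them, had a median nearer 0. Of 37 tested, 30 were called lower and none higher, against 29.7% and 30.5% of all tested genes, with a median of -0.59. A fall of at least 2-fold was called in 5 of the 37, against 11.3% of all tested genes. Cox14 (-1.44) and Uqcc1 (-1.12), needed for complexes IV and III, and Sdhaf4 (-1.33), which serves Sdha, changed most among those of at least 10 CPM. With library size only, 17 assembly factors were called lower and 3 higher, where 2240 and 6738 of all 13214 tested genes were. All 36 nuclear complex I genes were called lower, against 29.7% of all tested genes, with a median of -1.04. Ndufa1 (-1.73), Ndufa3 (-1.51) and Ndufa6 (-1.48) led them. All 7 mitochondrial ones were called lower too (median -0.97), led by mt-Nd4l (-1.04), mt-Nd5 (-1.02) and mt-Nd4 (-1.0).

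Of 19 tested carriers and general markers of mitochondria, 17 were called lower, against 29.7% of all tested genes, with a median of -0.69. The phosphate carrier Slc25a3, which feeds ATP synthase, was at 1561 and 1600 CPM with DMSO and at 672 and 735 CPM with BMS-582949 (-1.17 ± 0.07). Slc25a5, an ADP/ATP carrier, changed by -0.75, Cs, the citrate synthase often used as a measure of mitochondrial mass, by -1.01, and Chchd3, an organiser of cristae, by -1.09. With library size only, 10 of these genes were called lower and 3 higher, where 2240 and 6738 of all 13214 tested genes were.

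**Figure D4:**
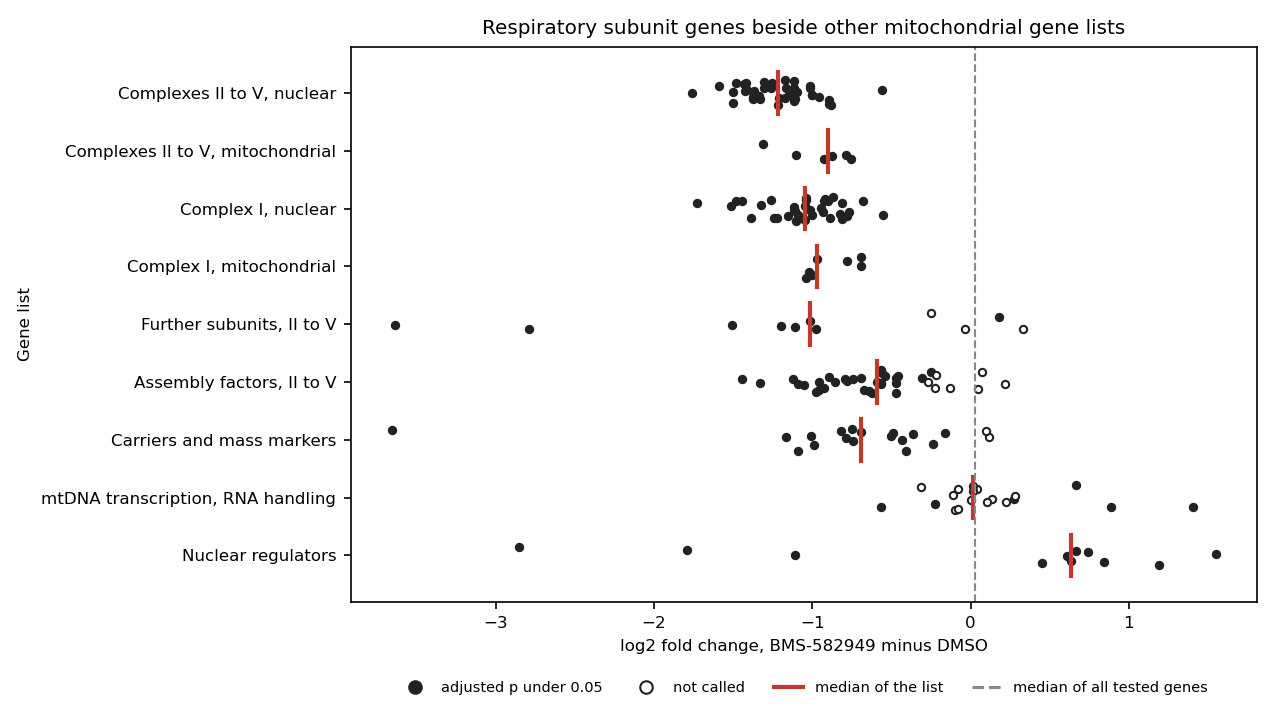
Log2 fold change (BMS-582949 minus DMSO) of every tested gene of 9 mitochondrial gene lists, 1 dot a gene, filled where the adjusted p was under 0.05, with the list's median as a red bar and the median of all tested genes (0.03) as a dashed line. Subunit genes of complexes II to V have medians of -1.21 (nuclear) and -0.90 (mitochondrial), and assembly factors one of -0.59. Genes of mitochondrial DNA transcription, replication and RNA handling have one of 0.01 and nuclear regulators one of 0.63.

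Genes that transcribe or replicate mitochondrial DNA or handle its RNA were mostly not called. Of 19 tested, 2 were called lower, 4 higher and 13 were not called, and the median was 0.01. Of all 13214 tested genes, 3919 were called lower, 4035 higher and 5260 were not called. Tfam, which packages and helps to transcribe mitochondrial DNA, was at 26.3 and 26.0 CPM with DMSO and at 31.0 and 30.0 CPM with BMS-582949 (0.22 ± 0.10, adjusted p = 0.082), and it was called higher with upper-quartile scaling (0.28) and with library size only (0.61). Tbrg4, a regulator of mitochondrial RNAs, changed by -0.57. Lrpprc, which stabilises mitochondrial mRNAs, changed by -0.23 (adjusted p = 0.020), but by 0.16 with library size only, and its call was lost when DMSO replicate 2 (-0.15, adjusted p = 0.18) or BMS-582949 replicate 2 (-0.192, adjusted p = 0.059) was left out. Polg, the mitochondrial DNA polymerase, changed by 0.27 (adjusted p = 0.010), and lost its call when DMSO replicate 1 was left out (0.21, adjusted p = 0.084). Without either DMSO replicate, 2 genes of the list were called higher. With library size only, 12 of the 19 were called higher and 1 lower. Over all 13214 tested genes, 6738 were called higher and 2240 lower on that scale. The 6 mitochondrial genes were called lower there too.

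Nuclear regulators of respiratory genes split into 2 sets. All 11 tested were called, 3 lower and 8 higher, against 29.7% and 30.5% of all genes. Ppargc1b encodes PGC-1β, a coactivator known to drive mitochondrial biogenesis in osteoclasts. It was at 17.7 and 19.4 CPM with DMSO and at 4.66 and 6.07 CPM with BMS-582949 (-1.79 ± 0.15, adjusted p = 5.7e-07). Esrra, the estrogen-related receptor alpha that works with PGC-1 coactivators, was at 118 and 123 CPM against 57.5 and 54.2 CPM (-1.11 ± 0.07, adjusted p = 2.5e-08). Perm1, a regulator induced by PGC-1 and ERR in muscle, was at 26.6 and 24.5 CPM against 3.60 and 3.47 CPM (-2.85 ± 0.13, adjusted p = 2.0e-09). Groups were apart in all 3, and Perm1 fell further than any of the 44 subunit genes. The relatives Ppargc1a, Esrrb and Esrrg had no count in any library.

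The other set rose. Nrf1, the factor whose core site is marked in the Sdhb promoter above, was at 27.3 and 25.4 CPM with DMSO and at 42.6 and 40.8 CPM with BMS-582949 (0.66 ± 0.10, adjusted p = 9.3e-05). Gabpa and Gabpb1, the subunits of GABP, which binds ETS sites, changed by 0.74 ± 0.12 and 0.84 ± 0.11. Creb1, a factor that responds to cAMP, changed by 1.19 ± 0.12 and Myc, a factor of growth and proliferation, by 1.55 ± 0.10. In each of these 5 genes both treated libraries lay above both DMSO libraries, as in 41.4% of all tested genes. So RNA of Nrf1 and GABP genes was higher in the same libraries in which RNA of the subunit genes was lower. Protein levels and binding were not measured.

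**Figure D5:**
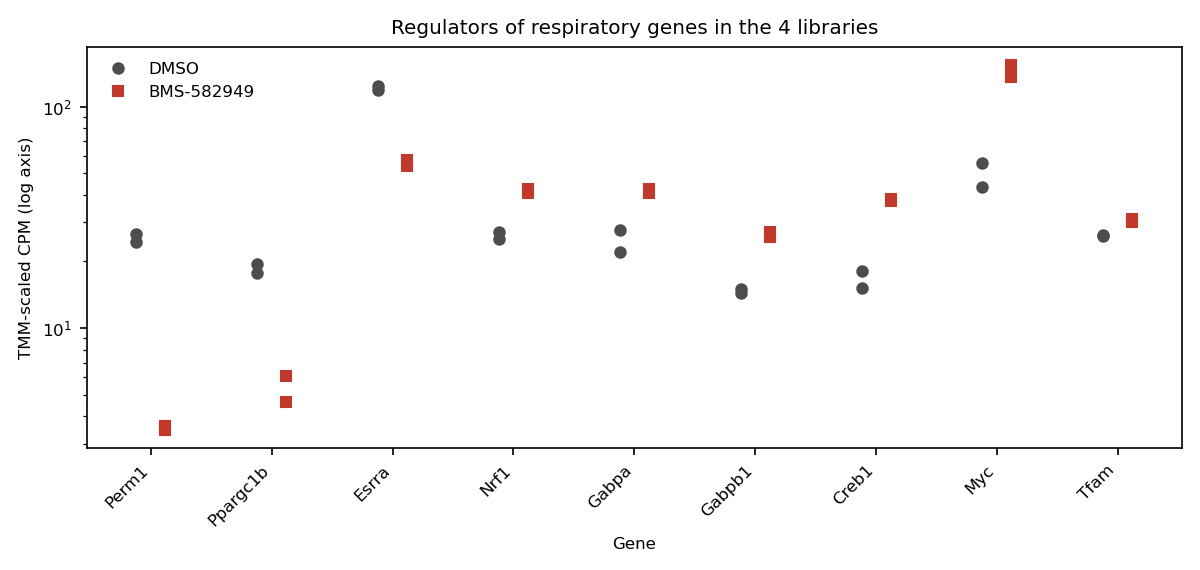
TMM-scaled CPM (log axis) of 9 regulator genes in the 4 libraries, DMSO as grey circles and BMS-582949 as red squares. Perm1, Ppargc1b and Esrra lie lower with BMS-582949, Nrf1, Gabpa, Gabpb1, Creb1 and Myc lie higher, and Tfam (26.0 and 26.3 CPM against 30.0 and 31.0 CPM) did not pass the test.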

How the data were processed

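RNA libraries were prepared from TRIzol extracts with a Hieff NGS Ultima mRNA kit, per the labels' protocols. The authors deposited raw counts per gene model. Per the submitters' processing notes they used Trimmomatic 0.36, HISAT2 2.0.4 and DESeq2 1.30.1 on GRCm38, with no roles or order given. The counting tool, its annotation and its use of strand are not stated (not given in the sources used here). Columns were matched to samples by control or compound name and replicate number; treated columns spell the compound as the treatment label does, not as the titles do.

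Genes were filtered with filterByExpr (minimum count 10, 13214 kept), scaled with TMM and tested in edgeR 4.0.16 (R 4.3.3) by the quasi-likelihood F test without covariates, leaving 2 residual degrees of freedom; the script was checked on simulated data. CPM are counts relative to the TMM-scaled library total, and SEs are the fold change over the root of F. Symbols, exon lengths and overlaps come from GENCODE M21 (GRCm38). Libraries of a group differed by more than counting error (chi-square over its degrees of freedom 10.0 and 14.3) and were kept as 2 samples a group.

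The members, lists and alternatives were chosen with earlier results of these data known. Every member may be named, with values per library for complex II, the extremes of each complex, catalytic subunits, the c ring and mitochondrial genes. Of other lists, up to 3 called genes a direction with a mean of at least 10 CPM are named, plus 10 set genes. Alternatives were 3 other scalings, 2 other filters, DESeq2 1.42.0, limma-voom 3.58.1, leaving out mitochondrially encoded genes, NewGene models or each library, removal of length and GC trends, a replicate block and stricter thresholds. Protein sequences were not used here.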

Additional observations from a re-analysis of the deposited data

How the results depend on the processing

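At adjusted p under 0.05, all 44 subunit genes kept their direction and their call under the other scalings, filters and tools, without NewGene models and without each library, as did the 38 nuclear ones with mitochondrially encoded genes left out. With the length and GC trend removed, 43 did, and mt-Atp8 was not called (-0.10, adjusted p = 0.20, and 0.14 with the replicate block). With a change of at least 2-fold required, 35 of 44 were called lower, against 11.3% of all tested genes. Tested against a 1.5-fold change, 37 of 38 nuclear and 4 of 6 mitochondrial genes were called lower, against 13.8% of all tested genes. The labels do not say whether replicate numbers pair libraries. Same-numbered deviations had a correlation of -0.0776 across genes, which with 2 libraries a group cannot decide it. The replicate block kept all 44 calls (largest adjusted p 5.4e-06). Depth is high for these genes, and the 2 libraries a group limit precision. The cause of the following shifts was not tested.

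With DESeq2 size factors the median of complex II was -1.25 and no further subunit was called higher (0). With upper-quartile scaling the medians of complexes II, III and ATP synthase were -1.17, -1.36 and -0.96, 1 gene of mitochondrial DNA handling was called lower and 2 carriers higher. With library size only the medians were -0.84 (complex II), -1.04 (III), -0.62 (cytochrome c), -0.81 (IV), -0.63 (ATP synthase), -0.83 (nuclear) and -0.52 (mitochondrial). On that scale 2240 of all 13214 tested genes were called lower and 6738 higher. There 17 assembly factors were called lower and 3 higher, and 10 carriers lower and 3 higher. Of the genes of mitochondrial DNA handling 12 were called higher and 1 lower, and Lrpprc changed by 0.16 (adjusted p = 0.092). With the length and GC trend removed the medians were -1.285 (II), -1.26 (III), -1.14 (cytochrome c), -0.953 (IV), -0.949 (ATP synthase) and -1.11 (nuclear). Together with the replicate block they were -1.285, -1.26, -1.14, -0.953, -0.95 and -1.11.

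DESeq2 called 0 further subunits and 2 genes of mitochondrial DNA handling higher. Against a 1.5-fold change, 1824 of all 13214 tested genes were called lower and 1572 higher. At that threshold 12 assembly factors and 9 carriers were called lower, and 3 regulators and 0 further subunits higher. The list of mitochondrial DNA handling had 0 genes called lower and 1 higher. At adjusted p under 0.01, that list had 1 lower and 1 higher and further subunits 0 higher. With a change of at least 2-fold, 1499 of all 13214 tested genes were called lower and 1314 higher. Calls lower were then 9 of 15 for ATP synthase, 2 of 6 for mitochondrial members and 5 of 37 for assembly factors. They were 21 of 36 and 2 of 7 for nuclear and mitochondrial complex I, 4 of 19 for carriers and 0 of 19 for mitochondrial DNA handling. Calls higher were then 1 of 19 for mitochondrial DNA handling, 2 of 11 for regulators and 0 of 11 for further subunits.

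Leaving out each library in turn, the median of complex III ran from -1.45 to -1.37, further subunits called higher from 0 to 1, and genes of mitochondrial DNA handling from 1 to 3 called lower and from 2 to 3 called higher. Per exon length, mean c subunit shares with DMSO and BMS-582949 were 9.27% and 8.87% (Atp5g1), 23.8% and 35.7% (Atp5g2) and 66.9% and 55.4% (Atp5g3). Without mitochondrially encoded counts in the total, the nuclear genes took 2.12% and 1.18% of counts (DMSO and BMS-582949). The mitochondrial genes, which are not part of that total, came to 4.90% of it with DMSO. With BMS-582949 they had 997245 and 1076044 counts beside totals of 37842230 and 35931253.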
